A study of Mus musculus with 6 samples.

Results

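Semaphorin signaling genes were measured in retinal ganglion cells (RGCs) whose axons stay on the ipsilateral side of the brain and in RGCs whose axons cross at the optic chiasm to the contralateral side. The genes were 6 class 3 semaphorins (Sema3a, Sema3b, Sema3c, Sema3d, Sema3e and Sema3f), both neuropilins (Nrp1 and Nrp2) and plexin D1 (Plxnd1). Every probe set annotated to exactly 1 of these 9 symbols was taken, which gave 26 of the 45037 probe sets on the array. The samples were 3 ipsilateral and 3 contralateral, from wild-type C57BL/6J embryos, and the sample records give their age as E16 (E16.5 in the methods of the study). The embryos were taken from females anesthetized with ketamine and xylazine, and no other drug is named. In each of 3 rounds, a rhodamine dextran was applied to the cut optic tract and carried back to the cell bodies, the retinas of the embryos of 2 litters were pooled by side, and live dye-filled cells were sorted by FACS. Each sample is thus a pool of embryos, and the pair of samples of a round was treated alike. The study picked these rounds for their enrichment of Zic2, a transcription factor of ipsilateral RGCs. Ipsilateral RGCs are known to lie mainly in the ventrotemporal retina, so the position of a cell and the side of its axon cannot be told apart.

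The secreted class 3 semaphorins steer growing axons and vessels. Sema3a acts through a complex of Nrp1 and an A-type plexin, and Sema3f acts mainly through Nrp2, because neuropilins bind the ligand and plexins carry the signal into the cell. Sema3e differs from the rest in that it binds plexin D1 directly and does not need a neuropilin, although Nrp1 can alter the response to it in neurons. In the mouse retina, Sema3e made by RGCs is known to act on plexin D1 of endothelial cells. Nrp1 is also a receptor for VEGF-A, and in mouse this pairing is known to help RGC axons cross the chiasm.

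The values are log2 intensities per probe set, and a difference is always ipsilateral minus contralateral on that scale, so that −1 is a level 2-fold lower in ipsilateral RGCs. Probe sets with a mean of at least log2 4.74, called the filter level, were tested with limma (36029 probe sets), and a probe set was called where it differed by 2-fold or more with an adjusted p under 0.05. The fit with the round as a factor, called the replicate block, is given as the blocked fit beside it. Levels of different probe sets are not compared with each other, because each has its own probes. The 6 arrays limit the precision, and differences had a standard error (SE) of 0.44 at the median probe set, or 0.17 in the blocked fit. P-values measure the spread between these pools.

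Of the 26 probe sets, 22 passed the filter, and they covered 8 of the 9 genes. No member was called higher or lower by limma, with or without the replicate block. Of all probe sets, 0.244% were called higher in ipsilateral RGCs (0.208% in the blocked fit) and 0.0% were called lower in either. Without adjustment of the p-value, 4 members were lower and 0 were higher at 2-fold, beside 0.239% lower and 2.05% higher of all probe sets, and all 4 were the probe sets of Sema3e. The same 4 passed in the blocked fit, beside 0.294% lower and 2.22% higher of all. The median difference was −0.23 over the 22 members (from −1.40 to 0.49) and −0.02 over all probe sets tested.

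Promoter windows are shown for Sema3e, on which the results turn, for its receptor Plxnd1 and for the coreceptor Nrp1. They are from RefSeq (GRCm38.p6), run from 250 bases before to 50 after a transcript start as the promoter table gives it, and are printed 5′ to 3′ on the strand of the gene. Capitals mark every E-box (CANNTG, which reads the same on both strands) and every GC box (GGGCGG, or CCGCCC on the other strand).
Sema3e, chr5:14025026-14025325, plus strand: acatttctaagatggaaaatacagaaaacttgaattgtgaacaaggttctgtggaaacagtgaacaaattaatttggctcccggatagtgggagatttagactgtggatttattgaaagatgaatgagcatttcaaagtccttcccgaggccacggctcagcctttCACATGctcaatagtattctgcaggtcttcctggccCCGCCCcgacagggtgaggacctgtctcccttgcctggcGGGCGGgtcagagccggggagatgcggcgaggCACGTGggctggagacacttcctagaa
Plxnd1, chr6:115994956-115995255, minus strand: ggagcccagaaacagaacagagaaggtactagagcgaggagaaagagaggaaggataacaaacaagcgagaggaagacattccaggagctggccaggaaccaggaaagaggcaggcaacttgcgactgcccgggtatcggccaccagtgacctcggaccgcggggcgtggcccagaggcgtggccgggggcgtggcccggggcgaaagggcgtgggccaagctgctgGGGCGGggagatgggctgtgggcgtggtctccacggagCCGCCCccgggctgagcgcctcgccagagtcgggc
Nrp1, chr8:128358823-128359122, plus strand: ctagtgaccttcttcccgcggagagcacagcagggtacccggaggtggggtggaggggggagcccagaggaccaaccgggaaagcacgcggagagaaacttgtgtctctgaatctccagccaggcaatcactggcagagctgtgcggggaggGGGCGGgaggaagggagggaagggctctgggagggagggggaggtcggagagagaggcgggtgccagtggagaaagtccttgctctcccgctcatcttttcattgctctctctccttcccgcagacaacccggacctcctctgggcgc
The Sema3e window holds the outermost start of the annotated gene, whereas those of Plxnd1 and Nrp1 lie wholly inside the annotated genes. The Sema3e window held 2 E-boxes and 2 GC boxes, at a GC content of 50.7% with 11 CpG dinucleotides. The Plxnd1 window held 0 E-boxes and 2 GC boxes, at 67.0% GC with 23 CpGs. The Nrp1 window had 0 E-boxes and 1 GC box, at 64.0% GC with 14 CpGs. An E-box was present in 72.3% and a GC box in 35.7% of the 32851 windows of this length in the table, whose median was 52.7% GC and 7 CpGs. These matches describe the letters alone. RefSeq windows were found for 7 of the 9 genes, not for Sema3b and Sema3f.

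Sema3e stood lowest among the members, and its 4 probe sets were each lower in ipsilateral than in contralateral RGCs in all 3 rounds. All but 1425906_a_at are in the table of differing genes that the study drew from these samples, so the direction here is not independent evidence. The study called those probe sets by a test that it does not name. Limma called none of them here, with or without the replicate block. The paper also reports Sema3e as lower in ipsilateral RGCs by quantitative RT-PCR of sorted cells. By in situ hybridization of slightly younger embryos, the paper reports Sema3e in contralateral RGCs only, as a mosaic in central retina. Those measurements do not come from these arrays. The plot of Sema3e by array shows each pair of samples. At probe set 1427673_a_at, the log2 levels were 7.82, 8.44 and 8.61 in ipsilateral RGCs of rounds 1 to 3, against 9.05, 10.11 and 9.47 in contralateral RGCs. All 3 ipsilateral samples lay below all 3 contralateral ones. The differences within rounds were −1.24, −1.67 and −0.85, and their mean of −1.25 corresponds to a 2.38-fold lower level (SE 0.43, unadjusted p = 0.0115 and adjusted p = 0.901 by limma). The blocked limma fit gave an adjusted p of 0.111.

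**Figure D1:**
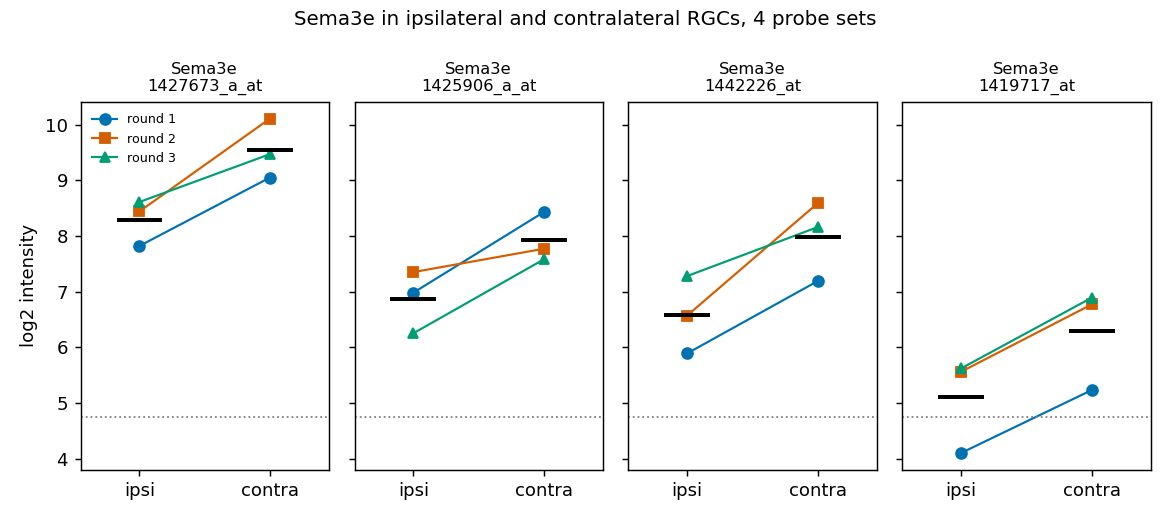
Log2 intensity of the 4 Sema3e probe sets in ipsilateral (ipsi, left) and contralateral (contra, right) RGCs. Points joined by a line are the 2 samples of a round, black bars are group means (n = 3), and the dotted line is the filter level of 4.74. All 12 lines lie lower on the ipsilateral side, and only ipsilateral round 1 of 1419717_at is below the filter level.

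The other 3 probe sets of Sema3e gave mean differences of nearly the same size. At 1442226_at the ipsilateral samples had 5.89, 6.57 and 7.28 and the contralateral samples 7.19, 8.59 and 8.16, a mean difference of −1.40 (SE 0.49). Its groups overlapped, because the ipsilateral sample of round 3 was higher than the contralateral sample of round 1. At 1425906_a_at the ipsilateral samples had 6.98, 7.35 and 6.25 and the contralateral samples 8.43, 7.77 and 7.58, a mean difference of −1.06 (SE 0.44), with no overlap. Here round 2 was the smallest of the 3 differences (−1.45, −0.42 and −1.33), whereas at 1427673_a_at and 1442226_at it was the largest. At the dimmest probe set, 1419717_at, the ipsilateral samples had 4.10, 5.56 and 5.62 and the contralateral samples 5.23, 6.77 and 6.89. The groups overlapped, but the rounds were almost equal, with −1.13, −1.21 and −1.27 (mean −1.20, SE 0.54). Limma adjusted p-values of these 3 were 0.936, 1 and 1, and those of the blocked fit were 0.130, 0.188 and 0.0688.

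Sema3e was lower at every one of its probe sets. Of 7433 genes with at least 2 probe sets tested, Sema3e was the 1 gene with a mean difference of 2-fold or more, in the lower direction, at each of them, while 82 genes were 2-fold higher at each. With at least 4 probe sets tested there were 1525 genes, of which 1 (Sema3e) was 2-fold lower and 6 were 2-fold higher at all. Over all probe sets, 119 (0.33%) were 2-fold or more lower, and those of Sema3e held ranks 11, 27, 44 and 85 of them, while 2.32% were 2-fold or more higher and 0 members were among those. This count is a description, since the gene was picked with its values known.

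Sema3a, which repels axons that carry Nrp1, had a lower ipsilateral level at 1 of its 3 probe sets in a way that separated the groups. At 1449865_at the log2 levels were 9.33, 9.28 and 9.55 in ipsilateral RGCs, against 9.71, 10.48 and 10.23 in contralateral RGCs, and the groups did not overlap. The rounds differed by −0.38, −1.20 and −0.68 (mean −0.75, SE 0.40), and the limma adjusted p was 1, and 0.223 when blocked. At 1420416_at the ipsilateral samples had 8.25, 8.64 and 8.29 and the contralateral samples 8.27, 8.88 and 8.84, which overlapped, and the mean difference was −0.27 (SE 0.40). The third probe set, 1420417_at, had 6.36, 7.24 and 6.74 in ipsilateral and 6.98, 7.06 and 7.39 in contralateral RGCs, with a mean difference of −0.36 (−0.61, 0.18 and −0.64 in rounds 1 to 3). All 3 means were below 0, and their 95% CIs overlapped (−1.61 to 0.10, −1.12 to 0.58 and −1.23 to 0.51). Over all 22 members, 3 had groups that did not overlap, all lower in ipsilateral RGCs (1449865_at of Sema3a and 2 of Sema3e), beside 2.03% of all probe sets, and 0 had such groups in the higher direction, beside 3.26%. After each array was centred on its median, 7 members were lower without overlap, beside 5.96% of all, and 0 were higher, beside 4.13%. The 7 were 3 of Sema3e, 2 of Nrp1 and 1 each of Sema3a and Nrp2.

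Sema3b, Sema3c and Sema3f, which are ligands that bind neuropilins, had mean differences near 0 at 6 of their 7 tested probe sets (from −0.06 to 0.11). Sema3f at its brightest probe set, 1438947_x_at, had 7.46 ± 0.39 in ipsilateral and 7.34 ± 0.29 in contralateral RGCs (SD, n = 3 each), a difference of 0.11 (95% CI −0.76 to 0.98). Its 1420508_at and 1425840_a_at each differed by 0.06. For Sema3c, 1420696_at had 5.48 ± 0.56 in ipsilateral and 5.43 ± 0.59 in contralateral RGCs (SD, n = 3 each), a difference of 0.05. These intervals include differences close to 2-fold, so the values do not show equal levels.

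Sema3b was the 1 ligand with a probe set higher in ipsilateral RGCs in all 3 rounds. Its 1448415_a_at had 4.62, 6.52 and 6.45 in ipsilateral and 3.76, 6.04 and 6.34 in contralateral RGCs, with round differences of 0.86, 0.48 and 0.12 (mean 0.49, SE 0.67). Its limma adjusted p was 1, and 0.347 when blocked. Both samples of round 1 were below the filter level, and the round with the largest difference was also the dimmest. The other Sema3b probe sets, 1431795_a_at and 1416644_a_at, differed by 0.01 and −0.06.

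Sema3d, a ligand known to act through neuropilins, was at low intensity on every array. Its 2 probe sets averaged 3.60 ± 0.83 and 3.36 ± 1.04 in ipsilateral RGCs, against 3.62 ± 0.71 and 3.52 ± 1.04 in contralateral RGCs (1429459_at and 1453148_at, SD, n = 3 each). Both were under the filter, as were 1429348_at of Sema3c, with a mean of 3.81 over the 6 arrays, and 1456778_at of Nrp2, with 4.72. None of these 4 was called when the filter was left out. Sema3g, the class 3 semaphorin that is not a member here, was also under the filter.

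Nrp1, the coreceptor of Sema3a and a receptor of VEGF-A, had lower ipsilateral levels in each round at 3 of its 4 probe sets, with means close to each other in size. At its brightest, 1418084_at, the ipsilateral samples had 8.40, 8.45 and 8.96 and the contralateral samples 8.64, 9.23 and 9.72. They differed by −0.60 on average (SE 0.42), with a limma adjusted p of 1, and 0.252 when blocked. The groups overlapped. At 1448943_at the ipsilateral samples had 7.97, 9.06 and 8.62 and the contralateral samples 8.46, 9.47 and 9.29 (mean difference −0.52). At 1448944_at the ipsilateral samples had 8.05, 8.74 and 8.63 and the contralateral samples 8.42, 9.41 and 9.22 (mean difference −0.54). Both also overlapped, and they ceased to once each array was centred on its median. The dimmest, 1457198_at, differed by −0.31, 0.43 and −0.72 in rounds 1 to 3.

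**Figure D2:**
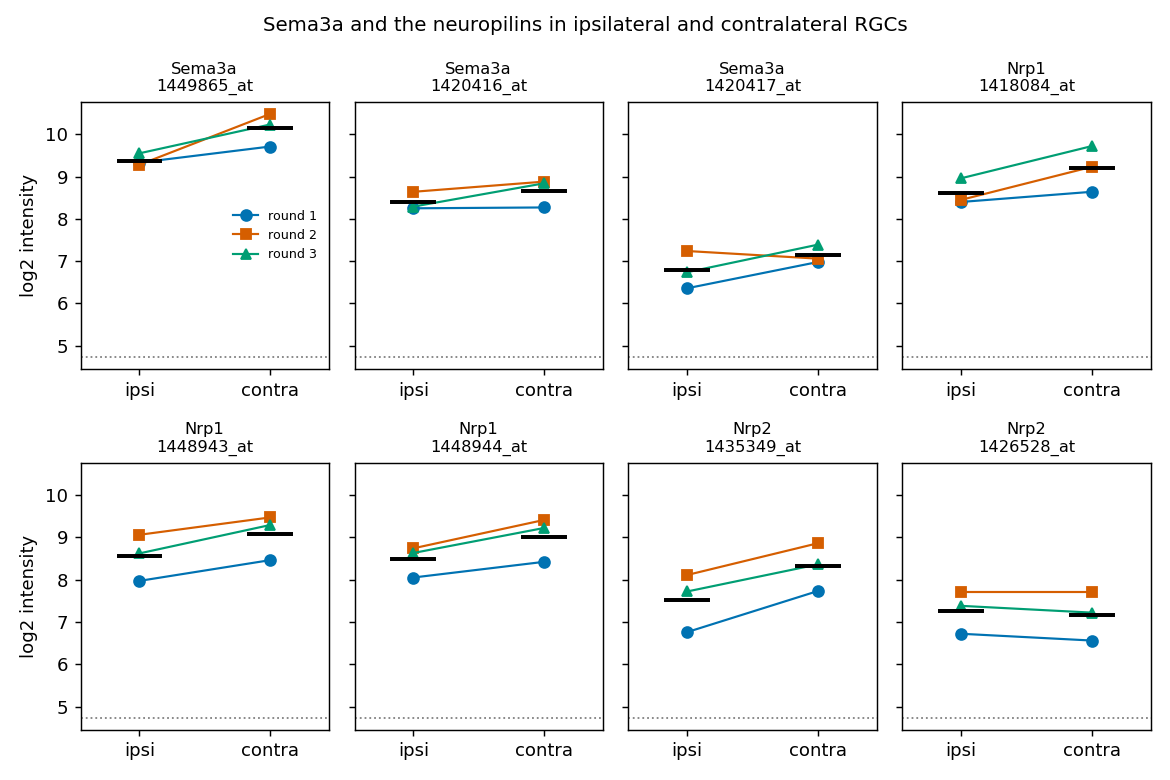
Log2 intensity of Sema3a (3 probe sets), Nrp1 (the 3 brightest) and Nrp2 (the 2 brightest) in ipsilateral (ipsi, left) and contralateral (contra, right) RGCs, drawn with lines for rounds, black bars for group means (n = 3) and a dotted line at the filter level of 4.74. The lines of Nrp1 and of Nrp2 1435349_at lie lower on the ipsilateral side in every round, while those of Nrp2 1426528_at are nearly level.

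The probe sets of Nrp2, the coreceptor of Sema3f, did not go together. At 1435349_at the ipsilateral samples had 6.76, 8.11 and 7.72 and the contralateral samples 7.73, 8.86 and 8.36. The ipsilateral level was lower in 3 of 3 rounds, although the groups overlapped. The mean difference was −0.79 (SE 0.47), with a limma adjusted p of 1, and 0.148 when blocked. At 1426528_at the ipsilateral samples had 6.72, 7.70 and 7.38 and the contralateral samples 6.56, 7.70 and 7.22, a mean difference of 0.11 with no round below 0. The difference at 1435349_at minus that at 1426528_at was −1.13, −0.76 and −0.81 in rounds 1 to 3 (mean −0.90), so that the 2 probe sets of this gene disagreed in every round by more than the spread between rounds (SD 0.20). A two-sided exact permutation test of this log ratio over the 6 arrays gave p = 0.10, the smallest that 3 samples against 3 allow. It was 1 of 7 such ratios compared, each picked after the values were seen, and its Benjamini–Hochberg adjusted p was 0.14. Which transcripts of Nrp2 each probe set reads was not analysed here. The third, 1447343_at, averaged 5.18 ± 0.19 in ipsilateral and 5.05 ± 0.40 in contralateral RGCs (SD, n = 3 each).

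Plxnd1, the receptor of Sema3e, lay above the filter level in all 6 samples and was not lower in ipsilateral RGCs in any round. Its probe set 1451475_at had 6.31, 7.06 and 6.12 in ipsilateral RGCs, against 6.18, 6.60 and 6.05 in contralateral RGCs. The groups overlapped, and the mean difference was 0.22 (SE 0.42, 95% CI −0.67 to 1.11, and an adjusted p of 1 by limma). Relative to Plxnd1 on the same array, the ipsilateral minus contralateral difference of Sema3e at 1427673_a_at was −1.37, −2.13 and −0.92 in rounds 1 to 3. The groups did not overlap in this ratio (exact permutation p = 0.10, adjusted over the 7 ratios 0.14). Relative to Nrp1 it was −0.99, −0.88 and −0.09 for 1418084_at, where the groups overlapped (exact permutation p = 0.20), and −0.74, −1.26 and −0.18 for 1448943_at, where they did not (exact permutation p = 0.10).

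**Figure D3:**
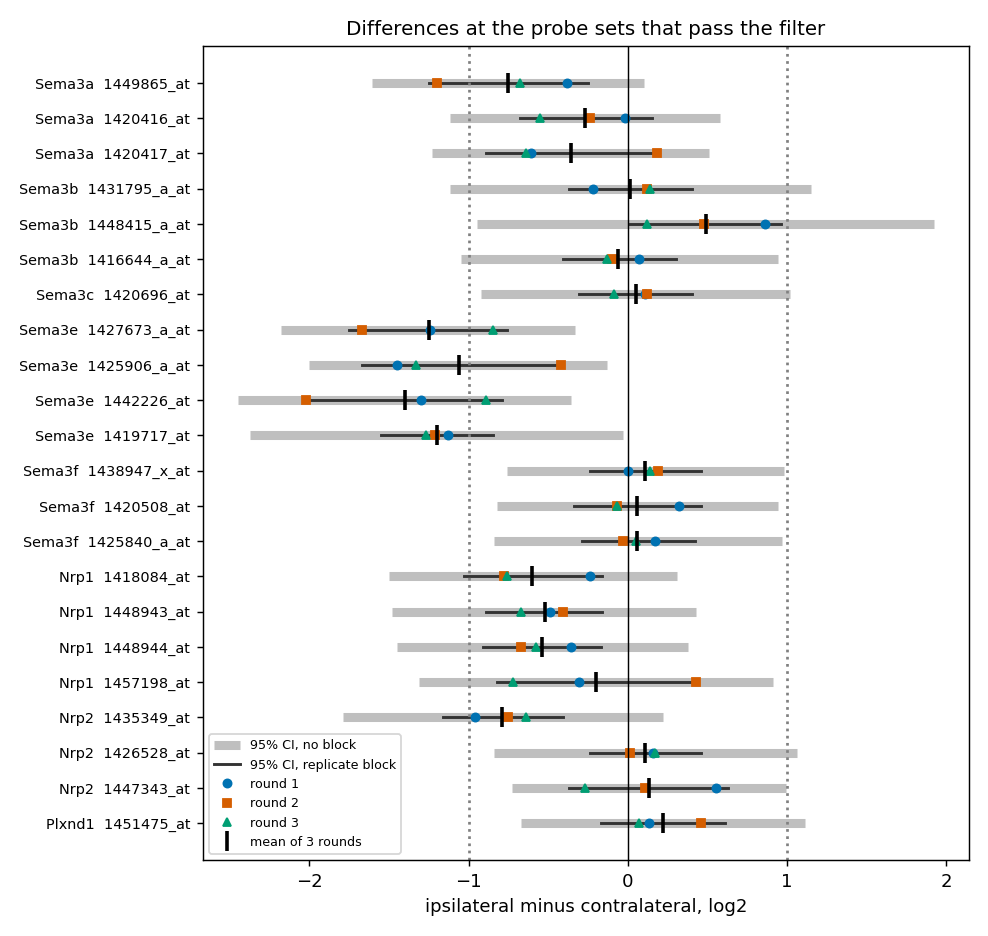
Ipsilateral minus contralateral difference (log2, x axis) at the 22 probe sets that passed the filter (rows). Symbols are the 3 rounds, the black tick is their mean, the gray bar is the 95% confidence interval without and the thin line that with the replicate block, and the dotted lines mark 2-fold. The means of the 4 Sema3e probe sets are beyond 2-fold, and those of the other 18 lie between −0.79 and 0.49.

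Counted over rounds, 10 of the 22 members had the lower level on the ipsilateral side of every round, beside 19.7% of all probe sets, and they belonged to Sema3e (4), Nrp1 (3), Sema3a (2) and Nrp2 (1). Higher in all 3 rounds were 3 members, 1 each of Sema3b, Nrp2 and Plxnd1, beside 16.7% of all probe sets. In the blocked fit, 9 members were lower at an unadjusted p under 0.05 with no fold threshold, beside 6.79% of all probe sets, and 1 was higher, beside 7.17%. Probe sets of a gene share its transcripts and so are not separate observations. At the brightest probe set of each gene, the median of the 8 genes was −0.29, and that of all 15346 genes was −0.01.

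Markers of RGCs were also lower in the ipsilateral samples. All 18 genes of the RGC list that could be tested (of 21 listed) had lower means in ipsilateral RGCs, and 17 did so in every round, beside 20.2% of all genes. None was called. The median difference was −0.45 (−0.37, −0.30 and −0.51 in rounds 1 to 3), and the summed intensity of the list ranged from 46400 to 56000 in ipsilateral and from 57000 to 69300 in contralateral samples. Isl1, a transcription factor of RGCs, had a mean of 11.28 in ipsilateral and 11.63 in contralateral RGCs. The list includes Pou4f1 (−0.45) and Isl2 (−0.57), which the paper names as markers of contralateral RGCs. Pou4f2, which the paper reports at similar levels in both groups along with Isl1, was listed but not among the genes tested. At their brightest probe sets, single genes of the list ranged from −0.92 (Slc17a6, a glutamate transporter) to −0.18 (Nefl, a neurofilament). The differences at the 3 brightest Nrp1 probe sets (−0.60 to −0.52) lay within that range. Those at Sema3e (−1.40 to −1.06) were below it, although each was within about 1 SE (0.43 to 0.54) of the lowest marker. The study lists another probe set of Pou4f1 as more than 2-fold lower in ipsilateral RGCs. Whether Sema3e lies below every probe set of the markers was thus not examined. In pooled samples, fewer cells of a type and less RNA per cell cannot be told apart.

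Markers of microglia and of retinal progenitors were higher in the ipsilateral samples. Of 14 microglial genes tested, 10 were called higher by limma, beside 0.358% of all genes, with a median difference of 4.11 and a summed intensity of 8480 to 13100 in ipsilateral and 363 to 958 in contralateral samples. C1qb, a complement gene of microglia, had the largest difference, with a mean of 10.34 in ipsilateral and 4.46 in contralateral samples. In the blocked fit 9 were called. Of 14 retinal progenitor genes, 4 were called higher, and 0 in the blocked fit, with a median of 2.27 and a summed intensity of 13900 to 29700 in ipsilateral and 7820 to 8010 in contralateral samples. Their part in the differences of the semaphorins and receptors was not tested. Endothelial genes, which would come with the vessel cells that carry plexin D1, had a median of −0.05, with 0 of 8 called. Kdr, an endothelial receptor for VEGF-A, was the exception in size, with differences of 0.60, 0.68 and 1.79 in rounds 1 to 3 (mean 1.02). The median of the list was 0.24 without ipsilateral replicate 1, −0.27 without contralateral replicate 1 and 0.38 under a filter at the 50th percentile. Their summed intensity was 525 to 1190 in ipsilateral and 462 to 773 in contralateral samples, and Cdh5, Tek, Tie1, Emcn and Robo4 were under the filter. No gene was called in the lists of pericytes, astrocytes, amacrine and horizontal cells, photoreceptor precursors, pigment epithelium, lens and mesenchyme. Their medians lay between 0.03 and 0.90. The highest medians were those of photoreceptor precursors (0.90) and mesenchyme (0.85).

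When each array was centred on the mean of the RGC list, a scaling chosen after the data were seen, the median of all probe sets moved by 0.47. This scaling adds the same amount to the difference of every probe set, so it cannot change their order. Sema3e remained lower at all 4 probe sets, by −0.93 to −0.60, while Nrp1 at 1418084_at, 1448943_at and 1448944_at differed by only −0.13, −0.05 and −0.07. The 3 probe sets of Sema3a were then at −0.28, 0.20 and 0.11, so that the last 2 turned direction. Nrp2 was at −0.32 for 1435349_at and 0.58 for 1426528_at, and Plxnd1 was at 0.69, beside a median of 0.45 for all probe sets. No member was called by limma after this scaling. The smallest adjusted p of limma was 0.207, for 1427673_a_at of Sema3e. The blocked limma fit gave 0.0432 for 1448415_a_at of Sema3b and 0.0472 for 1451475_at of Plxnd1, both higher. It gave 0.0452 for 1419717_at of Sema3e, which was lower, and all 3 were at under 2-fold. Of all probe sets, the blocked fit called 1971 higher and 4 lower after this scaling, against 75 and 0 before it. On the deposited values, which lack this general shift, the blocked limma fit gave adjusted p-values of 0.347 for this Sema3b probe set and 0.595 for Plxnd1.

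**Figure D4:**
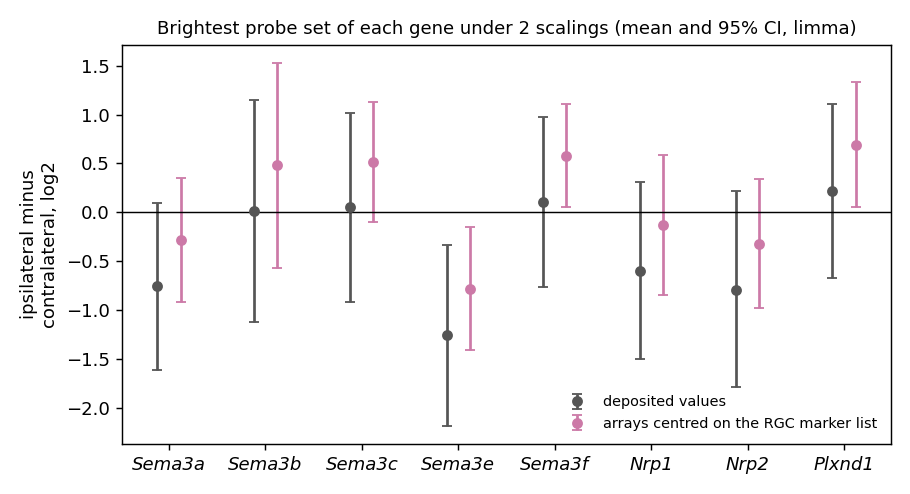
Ipsilateral minus contralateral difference (log2, y axis) at the brightest probe set of each of 8 genes, with the 95% confidence interval of limma without the replicate block, from the deposited values (dark) and after each array was centred on the mean of the RGC marker list (pink). Sema3e is the lowest of the 8 under both, at −1.25 and −0.78. The centring raises every gene by the same amount, so the order of the genes is fixed.

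Genes that act with the members were listed by role. Of 8 coreceptors and receptor partners, 0 were called and 6 had lower ipsilateral levels in every round, beside 20.2% of all genes, with a median of −0.41. Plxna3, an A-type plexin that carries the Sema3a and Sema3f signal, had 7.62, 8.17 and 8.13 in ipsilateral RGCs, against 8.08, 9.33 and 8.80 in contralateral RGCs (difference −0.76, SE 0.43), and Plxna4 went slightly the other way, by 0.08. Of 22 intracellular mediators tested, 0 were called, and the median was −0.31. In all 3 rounds, 14 were lower, beside 20.2% of all genes, and 2 were higher, beside 17.6%. Among the mediators, Mical1, an enzyme that takes actin filaments apart after plexin activation, differed by 1.13 (SE 0.44), with a limma adjusted p of 1, and 0.0881 when blocked. The study, from these same samples, lists Mical1 among its genes higher in ipsilateral RGCs. Mical3, a relative of Mical1, differed by −0.64. Without ipsilateral replicate 1 the median of the coreceptors and partners was −0.10, that of the mediators −0.13 and that of the RGC markers −0.32.

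The genes whose pattern over the 6 arrays was most like a member were found by Pearson's r of median-centred values, among the brightest probe sets of all genes. This is a description over 6 arrays that share their rounds. For Sema3e they were Zfp316 (r = 0.995), Tspan17 (0.986), Pitpnm2 (0.985), Hecw2 (0.979) and Guk1 (0.978), all lower in ipsilateral RGCs in every round, and 151 genes had r above 0.9. Of these 5, Hecw2 (−1.28) and Zfp316 (−1.09) were, like Sema3e, beyond 2-fold, and the study lists both as lower in ipsilateral RGCs. For Nrp1 they were AI597479 (0.997), Tstd3 (0.995) and Mdga2 (0.995), and 562 genes were above 0.9. For Plxnd1 they were Trim23 (0.992), Gng12 (0.990) and Hpse (0.990), and 133 were above 0.9. With so many genes at such values, a high r over 6 arrays sets no gene apart.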

How the data were processed

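RNA of sorted RGCs was amplified as cDNA and hybridized to 6 Affymetrix mouse genome arrays. The authors made the deposited log2 values with RMA in Affymetrix Expression Console 1.1, per the labels, which corrects background, normalizes and summarizes probes; whether all arrays were normalized together is not given in the sources used here. The methods name GeneSpring with a 2-fold change and an adjusted p under 0.05, but no test.

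Here, 64 control probe sets of 45101 were left out, and probe sets with a mean at or above the 20th percentile (log2 4.74) were kept. In the platform annotation, 34945 probe sets have 1 gene name, 932 have more and 9160 have none. The test of ipsilateral against contralateral samples used limma (version 3.58.1, R 4.3.3) with lmFit and eBayes, no block and Benjamini–Hochberg adjustment over the 36029 probe sets kept. The fit function was run on simulated data that had no round effects. The planted differences were larger than those of the members, so the run does not show how the fit performs on these arrays. Sample numbers pair the samples, since the study treated the 2 samples of a round alike: deviations from group means correlated at 0.511, 0.541 and 0.612 within and at −0.353 to −0.207 between rounds. Such deviations cancel within a group, so positive values within rounds force negative ones between them.

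All member probe sets are named. From pathway lists, the genes with the largest difference in each direction are named, from marker lists those that show which markers are high or low, and further the genes most like Sema3e, Nrp1 and Plxnd1 by correlation. Members and lists were chosen with earlier results of these data known. Alternatives were the replicate block, filters, normalizations, tests, weights, thresholds, other probe sets of a gene and leaving out arrays or rounds, and centring on the RGC list and block-based weights were added after the data were seen.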

Additional observations from a re-analysis of the deposited data

How the results depend on the processing

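No member was called higher under any alternative. Members were called lower in ipsilateral RGCs under 4 alternatives, all of them Sema3e, and under no other: 3 with array weights, 1 with array weights and the replicate block (1419717_at, limma adjusted p = 0.0447), 3 when p-values were adjusted among 2-fold probe sets only, and 4 at a 2-fold difference with no adjustment. Adjustment among 2-fold probe sets selects them by the very difference that is tested. The rule with no adjustment ignores the number of tests, so neither can support a call. The array weights without the block put 5.67 and 6.12 on the ipsilateral and contralateral arrays of round 3 and 0.281 to 0.657 on the others, and called 148 probe sets lower against 0 without weights. The replicate block changed no call of a member and left every difference as it was. Sema3e was lower under every alternative run, and without single arrays or rounds its differences ranged from −1.50 to −0.97 (1427673_a_at), −1.39 to −0.76 (1425906_a_at), −1.80 to −1.06 (1442226_at) and −1.73 to −0.71 (1419717_at). The ends of the last range came without the ipsilateral array (−0.71) and without the contralateral array (−1.73) of round 1. A filter at the 50th percentile drops 1419717_at. Over all probe sets, 88 were called higher, with 0 in the unmoderated test and 1971 after centring on the RGC list in the blocked fit as the extremes.

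Of 588 differences of members under alternatives, 45 reversed, none of them a call. Sema3b 1431795_a_at was at −0.03 and Sema3c 1420696_at at −0.01 after quantile normalization, with and without the replicate block, and 1431795_a_at was at −0.03 after median centring in both fits. With array weights, Sema3c 1420696_at and Sema3f 1420508_at were both at −0.06 and Nrp2 1447343_at at −0.21. Centred on the RGC list, in both fits, Sema3a 1420416_at was at 0.20, Sema3a 1420417_at at 0.11, Sema3b 1416644_a_at at 0.41 and Nrp1 1457198_at at 0.27. Leaving out arrays or rounds gave ranges that cross 0 for Sema3b 1431795_a_at (−0.48 to 0.44), 1448415_a_at (−0.32 to 1.11) and 1416644_a_at (−0.43 to 0.25), Sema3c 1420696_at (−0.29 to 0.35), Sema3f 1438947_x_at (−0.06 to 0.32), 1420508_at (−0.21 to 0.19) and 1425840_a_at (−0.17 to 0.31), Nrp1 1457198_at (−0.61 to 0.26), Nrp2 1426528_at (−0.19 to 0.39) and 1447343_at (−0.10 to 0.33), and Plxnd1 1451475_at (−0.06 to 0.41). With rounds blocked and 1 round left out, Sema3f 1420508_at was at −0.07 and Nrp2 1447343_at at −0.08 without round 1, Sema3b 1431795_a_at at −0.04 without round 2 and −0.05 without round 3, and Nrp1 1457198_at at 0.06 without round 3. Centring on the RGC list adds the same amount to every difference, and the cause of the other reversals was not tested. In fits without 1 array the rounds are no longer balanced, and the median of all probe sets then lay between −0.25 and 0.22. Of 216 list medians under alternatives, 45 moved by more than the SD of the round medians. Without single arrays or rounds, medians ranged from −0.59 to −0.32 (RGC), −0.59 to −0.10 (coreceptors and partners), −0.36 to −0.13 (mediators), −0.12 to 0.27 (VEGF), −0.38 to 0.31 (cleavage enzymes) and −0.27 to 0.24 (endothelial). Centred on the RGC list, those of coreceptors and mediators were 0.06 and 0.16. The intensity of low probe sets such as Sema3b 1448415_a_at and Sema3d limits what can be said of them.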

Other observations

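Ligands and receptors of the VEGF family, which share neuropilins with the class 3 semaphorins, had a median difference of 0.06, and 0 of the 8 genes tested were called by limma. Leaving out arrays of round 1 gave a median of 0.27 (without the ipsilateral one) or −0.12 (without the contralateral one). Kdr, the main signaling receptor for VEGF-A, had 7.73, 7.93 and 9.33 in ipsilateral RGCs, against 7.13, 7.25 and 7.54 in contralateral RGCs. Its groups did not overlap, and the difference was largest in round 3, at 1.79, with 0.60 and 0.68 in rounds 1 and 2 (mean 1.02, SE 0.47, unadjusted p = 0.0461 by limma). Its limma adjusted p was 1, and 0.220 when blocked. Vegfa, the ligand of Nrp1 and Kdr, averaged 8.01 ± 0.52 in ipsilateral and 7.76 ± 0.61 in contralateral samples (SD, n = 3 each). Vegfd had the largest difference in the other direction, of −0.16.

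The enzymes that cleave class 3 semaphorins, which alters their activity, did not move together. The 4 genes had a median difference of −0.02 and 0 calls, and the median was −0.38 without contralateral replicate 1 and 0.31 without contralateral replicate 2. Pcsk5 had 4.70, 6.84 and 6.08 in ipsilateral RGCs and 4.28, 5.79 and 5.14 in contralateral RGCs, higher in 3 of 3 rounds (mean 0.80, SE 0.56). Pcsk7 had 5.45, 6.60 and 6.11 in ipsilateral RGCs and 5.89, 6.98 and 6.60 in contralateral RGCs, lower in 3 of 3 rounds (mean −0.43, SE 0.45). Both sets of groups overlapped. Furin, the best known of these enzymes, differed by 0.06.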
